A study of Mus musculus with 3 samples.

Results

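The interferon regulatory factors are a family of transcription factors, and 7 of them were followed here: *Irf1*, *Irf2*, *Irf3*, *Irf5*, *Irf7*, *Irf8* and *Irf9*. They were chosen by symbol from the 32287 features of the count matrices, and each symbol matched 1 feature. *Irf4*, another gene of the family, is given only for reference.

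The study drove Müller glia (MG), the radial glia of the retina, back into the cell cycle in mice without injury and sequenced single cells by droplet, with 1 library for each of 3 groups. All mice were of the genotype Glast-CreERT2; R26-CAG-LSL-Tdt, in which a glial promoter drives an inducible Cre that switches on tdTomato, and all received tamoxifen, by the labels at 75 mg/kg from postnatal day (P) 20, while the study's methods state another dose and schedule. Control retinas received AAV7m8-GFAP-GFP-LacZsh into the vitreous at P28. CCA (cell cycle activator) retinas received at P28 the vector AAV7m8-GFAP-cyclin D1-p27sh, which overexpresses cyclin D1 and knocks down p27, mixed with a smaller share of the control vector. CCANT retinas received the same mixture and then NMDA, an excitotoxin, at P35 and trichostatin A (TSA), an inhibitor of histone deacetylases, at P37. In all 3 groups a GFAP promoter drove the vectors, retinas with visible GFP were collected, by the labels at P51, cells positive for tdTomato were taken by flow sorting, and 2 to 4 retinas were pooled into the library. With 1 pool per group no difference between groups has a replicate check, no test between groups was made, and the intervals below cover counting error only.

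Type I interferons signal through a receptor and its kinases to ISGF3, a complex that contains IRF9 and turns on antiviral genes such as those of the Ifit and Oas families. Interferon-gamma acts largely through IRF1, which turns on genes of antigen processing and guanylate-binding proteins. IRF3, IRF5 and IRF7 lie downstream of sensors of foreign nucleic acid and induce interferons themselves, IRF2 competes with IRF1 for the same sites, and IRF8 is best known as a factor that builds the myeloid lineage, microglia included.

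Levels are given as CPM, the unique molecular identifiers (UMIs, each 1 captured transcript) of a gene in 1000000 UMIs of the same cells, with exact 95% Poisson intervals. The cells the authors kept in their joint table are called the kept cells. By the study's methods they were selected for tdTomato, and detected doublets and clusters held to be contaminated were removed. They numbered 3758 for control, 3890 for CCA and 3278 for CCANT, and their median depths were 24236, 20711 and 20722 UMIs. The label MG was checked against its markers: the 9 MG markers summed to 16315 CPM in control, against 14222 in CCA and 13384 in CCANT kept cells. Rod markers summed to 209.7, 517 and 880.1 CPM in the same cells. Of 9 clusters of kept cells, 1 carried both MG and rod markers. Another, of 52 cells, stayed unnamed by the naming rule but passed the markers of rods and not those of MG. Between 52 and 74 barcodes were shared by any pair of libraries, of which at most 8 belonged to kept cells of both. Kept cells of the control library carried Y-linked transcripts in 3708 cases without *Xist*, whereas 3805 CCA cells carried *Xist* without Y-linked transcripts, so that sex and group cannot be told apart between these libraries. The CCANT library held both kinds of cell, 998 with Y-linked transcripts only and 1505 with *Xist* only, and 756 cells (23.1%) held both, against 0.718% of control and 1.93% of CCA kept cells, so this split is not a clean one.

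The promoter stretches below are those of the members that hold a match to a known interferon element. Of these, *Irf1* and *Irf8* were lower after both treatments and *Irf2* was nearly level. The 250 bases before each start of the 7 members (10 starts in RefSeq, build GRCm38.p6) were searched on both strands for GAAANNGAAA, the core of the interferon-stimulated response element (ISRE) that ISGF3 and IRFs bind, and for TTCNNNGAA, the gamma-activated site (GAS) of STAT dimers, which reads the same on both strands. Matches are in capitals, and every stretch runs 5′ to 3′ on the + strand.
Irf1, chr11:53769899-53769958: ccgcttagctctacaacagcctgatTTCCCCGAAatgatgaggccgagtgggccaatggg
Irf2, chr8:46739495-46739555: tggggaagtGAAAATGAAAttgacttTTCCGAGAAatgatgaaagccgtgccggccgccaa
Irf8, chr8:120736162-120736239: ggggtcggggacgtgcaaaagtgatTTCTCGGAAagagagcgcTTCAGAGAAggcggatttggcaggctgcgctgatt
The GAS match of *Irf1* began 90 bases before its start, and those of *Irf8* began 171 and 153 bases before its first start. *Irf2* held an ISRE match 241 bases and a GAS match 224 bases before its start. Among all 32851 promoter windows of this length, 2.98% held an ISRE match and 7.02% a GAS match. No match lay in the windows of *Irf3*, *Irf5*, *Irf7* and *Irf9*, which says only that these letters are not there.

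By their counting intervals, *Irf1* and *Irf8* in kept cells were lower after both treatments, *Irf7* was higher after CCA and lower after CCANT, *Irf9* was lower after CCANT, and *Irf5*, at very low counts, was higher after CCA, whereas *Irf2* and *Irf3* differed from the control by at most 1.10-fold. A member was called lower or higher where its level differed at least 1.5-fold between libraries. From control to CCA, 1 of the 7 members was lower, against 2.73% of the 16915 genes with at least 100 UMIs over the 3 libraries, and 2 were higher, against 11.1% of genes. From control to CCANT, 2 members were lower (5.38% of genes) and 1 was higher (10.9% of genes). The 1 called higher was *Irf5*, whose counting interval included no change. From CCA to CCANT, 1 member was lower (5.49% of genes) and 0 were higher (2.82% of genes). The median log2 ratio of the members was 0.04, -0.31 and -0.28 in these 3 comparisons, and that of all 16915 genes was 0.07, 0.03 and -0.04.

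**Figure D1:**
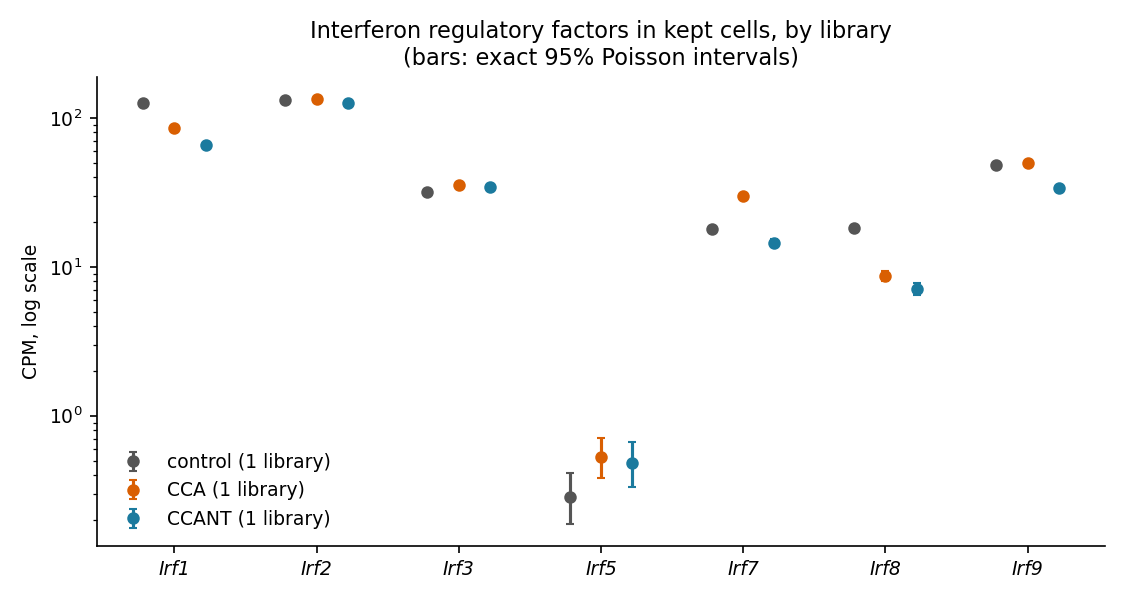
Level of each interferon regulatory factor in the kept cells of the control, CCA and CCANT libraries, in CPM on a log axis, with exact 95% Poisson intervals (1 library per group). *Irf1* and *Irf8* step down from control to CCANT, *Irf7* is highest in CCA, and *Irf5* lies below 1 CPM in all 3 libraries.

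*Irf1* (ENSMUSG00000018899, chr11:53770014-53778374 on mm10), the main IRF of the interferon-gamma response, stood at 126 CPM in control, against 86.0 in CCA and 65.9 in CCANT kept cells. The intervals of the 3 libraries did not overlap, with the control highest and CCANT lowest. The log2 ratio was -0.56 from control to CCA (95% interval -0.60 to -0.51), just inside the 1.5-fold limit, and -0.94 from control to CCANT (-0.99 to -0.89). Among all genes tested, 3.00% had a lower ratio than *Irf1* from control to CCA and 2.12% from control to CCANT. With every cell thinned to 4000 UMIs, *Irf1* was detected in 29.2% of control, 22.3% of CCA and 18.6% of CCANT kept cells (72.4%, 55.9% and 52.9% before thinning). In amacrine-like cells of the same libraries, whose median depths were 22729, 25475 and 24689 UMIs, the thinned shares were 3.44%, 1.91% and 3.70%.

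*Irf2* (ENSMUSG00000031627, chr8:46739732-46847458), which occupies the same sites as IRF1, was at 132 CPM in control, against 133 in CCA and 126 in CCANT. The log2 ratio was 0.02 from control to CCA (-0.02 to 0.05) and -0.07 from control to CCANT (-0.11 to -0.03). Its levels lay close together, and the thinned share of cells was 37.8%, 38.6% and 38.0% (89.5%, 84.4% and 86.4% before thinning). Over all kept cells, *Irf1* was therefore lower in both treated libraries while *Irf2*, read in the same cells, was nearly level. Within clusters *Irf2* was not level throughout, as given below.

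Among the factors that induce interferon, *Irf7* (ENSMUSG00000025498, chr7:141262706-141266481, - strand), the IRF that amplifies the type I response and is itself a target of ISGF3, was at 18.0 CPM in control, against 29.8 in CCA and 14.5 in CCANT. The CCA library stood apart as the high one and CCANT as the lowest. The log2 ratio was 0.73 from control to CCA (0.64 to 0.82), -0.31 from control to CCANT (-0.42 to -0.19) and -1.04 from CCA to CCANT (-1.15 to -0.93). In the last comparison 1.69% of genes had a lower ratio. The thinned share of cells with *Irf7* was 6.57%, 8.90% and 5.58% (30.6%, 31.2% and 22.3% before thinning), against 0.542%, 1.22% and 1.44% of amacrine-like cells.

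*Irf3* (ENSMUSG00000003184, chr7:44997648-45002848), the factor that cells hold ready for the first wave of interferon, was at 32.1, 35.3 and 34.6 CPM in control, CCA and CCANT. The log2 ratios to the control were 0.14 (0.06 to 0.21) and 0.11 (0.03 to 0.19), both far inside the 1.5-fold limit. *Irf5* (ENSMUSG00000029771, chr6:29526625-29541871), known for inflammatory cytokine genes in myeloid cells, had 27 UMIs in all control kept cells, 44 in CCA and 34 in CCANT. These are 0.283 (0.186 to 0.412), 0.528 (0.384 to 0.709) and 0.480 CPM (0.332 to 0.671), and amacrine-like cells held 0.563, 0.242 and 0.299. The intervals of kept and amacrine-like cells overlapped in each library, so the pooled levels could not be told from background. Within kept cells the highest values were 4.29 (1.39 to 10.0) in 41 CCANT cells of a cycling cluster, which passed markers of T and NK cells and not those of MG, and 2.50 (1.33 to 4.27) in 221 CCA cells of 1 MG cluster, both above amacrine-like cells of their library. Both called ratios of *Irf5*, a log2 of 0.90 from control to CCA (0.18 to 1.65) and 0.76 from control to CCANT (-0.01 to 1.55), compare the pooled levels, and in the MG clusters of all cells that passed the quality limits both calls were lost, at 0.20 and 0.14.

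*Irf9* (ENSMUSG00000002325, chr14:55603571-55610030), the DNA-binding subunit of ISGF3, was at 48.5 CPM in control, against 49.9 in CCA and 33.8 in CCANT. Control and CCA overlapped, with a log2 ratio of 0.04 (-0.02 to 0.10), and CCANT was lower than both, by -0.52 against the control (-0.59 to -0.45) and -0.56 against CCA (-0.63 to -0.49). The thinned share of cells was 17.6%, 18.1% and 11.7% (65.6%, 55.4% and 44.5% before thinning). *Irf9* overlaps *Rnf31* on the same strand, so how reads were split between these genes is uncertain.

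*Irf8* (ENSMUSG00000041515, chr8:120736358-120756694), the myeloid factor, was at 18.3 CPM in control, against 8.67 in CCA and 7.12 in CCANT. Control was the highest by a wide margin, and the treated libraries lay close to each other. The log2 ratio was -1.08 from control to CCA (-1.21 to -0.95), -1.36 from control to CCANT (-1.51 to -1.22) and -0.29 from CCA to CCANT (-0.45 to -0.12). Among all genes 0.721% had a lower ratio from control to CCA and 0.857% from control to CCANT. The thinned share of kept cells was 6.41%, 3.04% and 2.78% (25.2%, 13.5% and 12.02% before thinning), and that of amacrine-like cells was 1.27%, 0 of 575 cells, which allows up to 0.522%, and 0.411%.

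**Figure D2:**
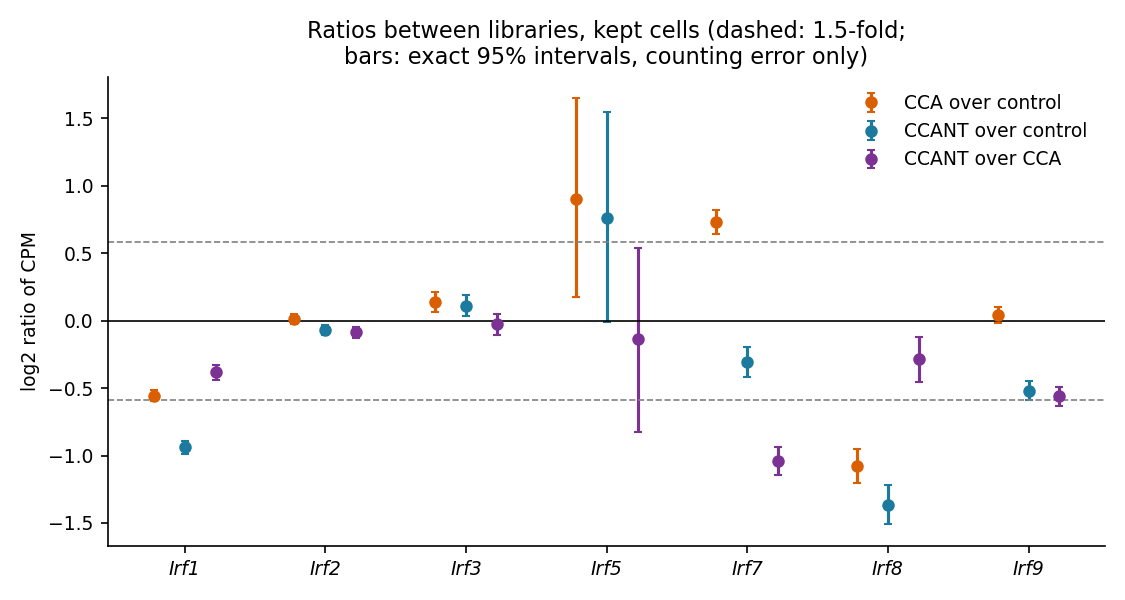
Log2 ratio of CPM between libraries for each factor in kept cells, with exact 95% intervals for counting error and dashed lines at 1.5-fold. *Irf8* lies below the lower line in both comparisons with the control, *Irf7* lies above the upper line for CCA over control and below the lower line for CCANT over CCA, and the intervals of *Irf5* are the widest.

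Outside the rule, *Irf4*, known from lymphocytes, was at 2.87 CPM in control, against 1.22 in CCA and 0.946 in CCANT kept cells. Markers of B and plasma cells summed to 49.2, 13.5 and 32.0 CPM in the same cells, and their part in the levels of *Irf4* and *Irf8* was not tested.

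The 14 markers of microglia and macrophages summed to 79.9, 73.2 and 70.1 CPM in control, CCA and CCANT kept cells, with none of the 14 at 0, and to 20109, 22590 and 20005 in the microglia- and macrophage-like cluster. *Spi1*, the partner of IRF8 in myeloid cells, was at 0.450, 0.384 and 0.311 CPM in kept cells. Kept cells with at least 1 *Irf8* UMI after thinning numbered 241 in control, and in them *Irf1* was at 273 CPM against 114 in the other control kept cells. The same split gave 165 against 84.8 in CCA and 137 against 63.5 in CCANT, so *Irf1* was higher beside *Irf8* in all 3 libraries. The microglial markers were there at 93.4 against 78.4 CPM in control, 84.7 against 73.8 in CCA and 79.7 against 70.4 in CCANT. No interval was computed for these sums, so they are not read as differences. The part of these markers in the *Irf8* of kept cells was not tested. The intervals of *Irf7* overlapped between both sets of cells, at 16.6 against 18.1 in control, 27.5 against 27.9 in CCA and 19.2 against 15.3 in CCANT.

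Other classes of cell were taken from 11 groups of clusters of all cells that passed the quality limits, kept cells left out, and named from marker genes. The sort for tdTomato should have removed most of them, so they are cells that came through it and may not stand for their class in the retina. Unlike the kept cells, they were not cleared of doublets. They are rod-like, cone-like and so on, and the ending is left off below. Amacrine cells, in which most members are low, serve as a class to compare with, since free RNA in droplets can give counts in cells that do not express a gene. They are not a floor for every member, because *Irf1* and *Irf9* were lower in some photoreceptors than in amacrine cells.

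*Irf8* was highest in microglia and macrophages, at 465 CPM in control (447 to 483), with 313 in CCA (295 to 332) and 283 in CCANT (265 to 303). The control was 1.49-fold above CCA and 1.64-fold above CCANT. Photoreceptors and the named bipolar cells of the control library also carried *Irf8* well above the amacrine cells of their library. Those of the treated libraries carried far less. Rods (842, 1336 and 1266 cells) held 24.2 CPM in control (19.9 to 29.1), with 4.00 in CCA (2.68 to 5.75) and 1.99 in CCANT (1.09 to 3.34). Cones (153, 264 and 252 cells) held 41.7 (33.3 to 51.6), 2.51 (1.15 to 4.76) and 2.06 (0.827 to 4.24). The control value thus lay above both others in each photoreceptor class, by 6.04-fold over CCA in rods. CCANT rods and the cones of both treated libraries overlapped with the amacrine cells of their library, so no fold is given over them.

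Bipolar cells (590, 869 and 1090 cells) held 43.3 CPM of *Irf8* in control (39.6 to 47.2), with 7.45 in CCA (6.18 to 8.90) and 7.25 in CCANT (6.12 to 8.52), and the control was again the one that stood apart. In the largest bipolar cluster, which expressed *Prkca*, *Trpm1* and *Pcp2* and so carried rod bipolar genes, the levels were 56.4, 5.70 and 9.44. An unnamed cluster that passed bipolar markers (99, 114 and 127 cells) held 60.8 (48.9 to 74.6), 27.2 (19.6 to 36.8) and 26.3 (19.0 to 35.4). Its treated cells thus stayed well above amacrine cells. Another unnamed cluster with bipolar markers held 35.5, 5.27 and 7.79. Amacrine cells (553, 575 and 487 cells) held 4.64, 1.87 and 1.94, and ganglion cells (144, 79 and 52 cells) held 8.70, 0.237 and 1.48. Of the 70 *Irf8* UMIs in control ganglion cells, 44 came from 1 cell. In rods 6 of 10920 genes had a lower ratio of CCA to control than *Irf8*, in cones 5 of 9058 and in bipolar cells 13 of 13802, and for CCANT over control these numbers were 2, 2 and 9.

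The summed microglial markers were at 73.8 CPM in control rods, 79.8 in CCA rods and 102 in CCANT rods. They were at 79.4, 62.2 and 55.5 in cones and at 89.3, 51.4 and 48.6 in bipolar cells, so that they were highest in control in these 2 classes but not in rods. Their part in the *Irf8* levels was not tested. For every 100 UMIs of these markers there were 32.7, 5.02 and 1.95 of *Irf8* in rods and 2.31, 1.39 and 1.42 in microglia and macrophages. The thinned share of cells with *Irf8* was 4.96%, 1.5% and 0.861% in rods (7.13%, 1.95% and 1.11% before thinning) and 12.2%, 1.73% and 2.30% in bipolar cells (29.2%, 7.83% and 8.26% before thinning). At most 8 UMIs came from 1 rod and 9 from 1 cone of the control library.

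The CCANT library held both kinds of cell. CCANT cells with Y-linked transcripts only, like those of the control, held *Irf8* at 3.59 CPM in rods (368 cells), 2.96 in cones (100 cells) and 6.96 in bipolar cells (381 cells). CCANT cells with *Xist* only (591, 105 and 381 cells) held 1.21, 0.710 and 6.59, with overlapping intervals in each class. Control cells with Y-linked transcripts only held 23.4, 41.3 and 43.5, above the CCANT cells of that kind in all 3 classes. The control and CCANT libraries also differ in vector, NMDA and TSA, and the part of sex was not tested.

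*Irf1* followed the order control, CCA, CCANT in microglia and macrophages too, at 261 (248 to 275), 151 (138 to 164) and 83.2 (73.3 to 94.1) CPM. Amacrine cells held 18.9, 8.76 and 9.27. Rods, at 11.1, 4.69 and 3.56, and cones, at 8.44, 3.90 and 2.64, lay below amacrine cells in every library, so their *Irf1* is not read as expression. Bipolar cells held 24.7, 18.3 and 16.4. The levels were 16.0, 6.53 and 6.47 without the 5% of cells with the highest doublet scores, and the largest bipolar cluster held 9.21, 4.83 and 4.86. Amacrine cells were at 12.1, 4.87 and 5.86 without the cells of high doublet score. Pericytes, the contractile cells of capillaries (55, 97 and 40 cells), were at 56.1 (40.9 to 75.1), 61.4 (50.0 to 74.7) and 47.3 (31.4 to 68.3), with overlapping intervals. Of the 100 CCA pericyte UMIs of *Irf1*, 29 came from 1 cell, and without the cells of high doublet score the levels were 60.3, 40.7 and 41.0. Endothelial cells (25, 47 and 31 cells) held 121, 125 and 62.4, so that only CCANT was lower there.

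*Irf7* was highest in the CCA library in microglia and macrophages, pericytes, endothelial cells, astrocytes and the cluster led by immunoglobulin genes. In the named classes of neurons control and CCA overlapped. An unnamed cluster that passed cone and amacrine markers was higher in CCA, at 7.55 CPM (5.70 to 9.80) against 2.73 in control (1.18 to 5.38). Control and CCA overlapped in the other unnamed clusters that passed neuronal markers. Microglia and macrophages held 66.2 CPM in control (59.6 to 73.2), with 145 in CCA (133 to 158) and 68.7 in CCANT (59.7 to 78.7). Pericytes held 28.7 (18.2 to 43.1), 59.0 (47.8 to 72.0) and 27.0 (15.4 to 43.9), endothelial cells 127, 255 and 118, and astrocytes 64.7, 109 and 32.0. Of the 92 *Irf7* UMIs in CCA astrocytes, 28 came from 1 cell. The cluster led by immunoglobulin genes (113, 41 and 48 cells), a mixture with T and NK cells, held 13.3 (9.21 to 18.6), 63.6 (46.0 to 85.6) and 29.0 (19.8 to 40.9). CCA was 2.19-fold above control in microglia and macrophages, 2.05-fold in pericytes and 2.01-fold in endothelial cells. In rods the levels were 9.58, 9.94 and 11.7 and in bipolar cells 5.58, 6.40 and 4.59. Whether the ratio differed between classes was not tested.

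**Figure D3:**
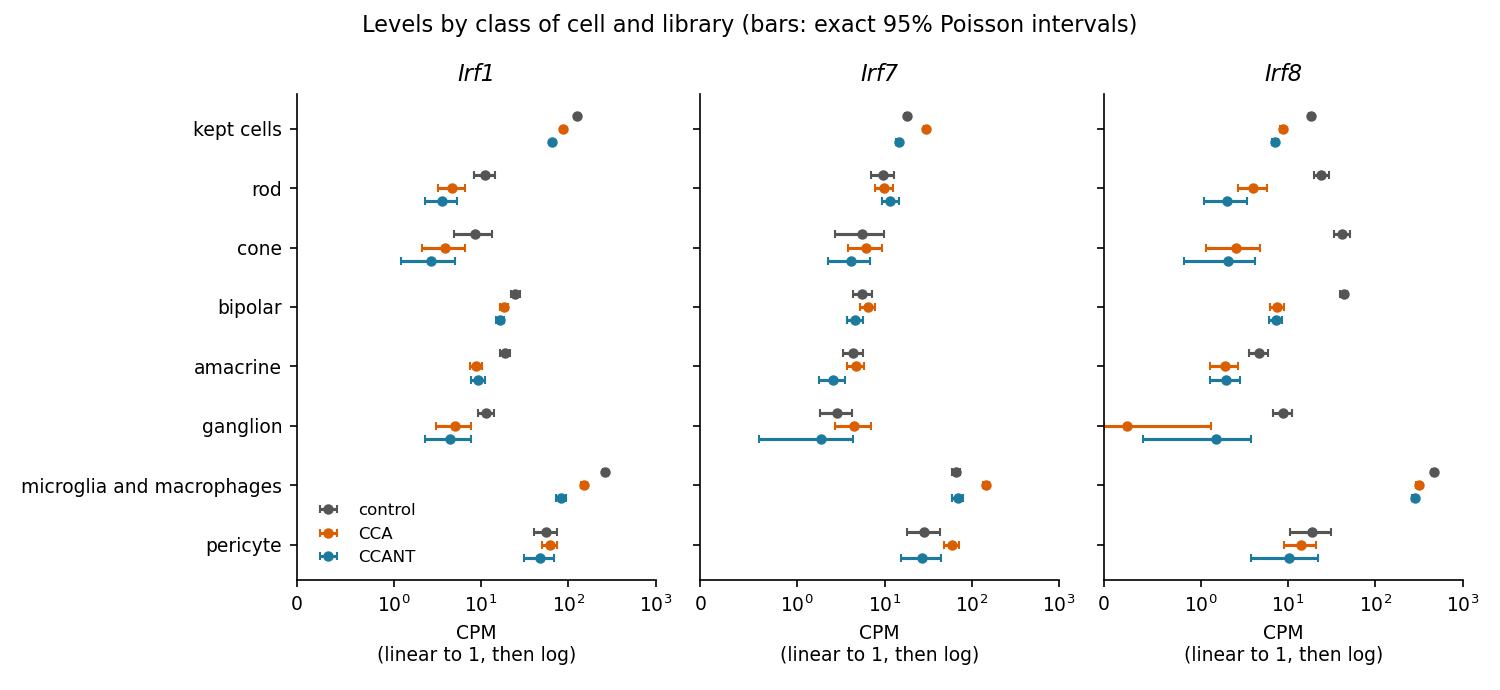
Levels of *Irf1*, *Irf7* and *Irf8* by class of cell and library, in CPM on an axis that is linear to 1 and logarithmic above, with exact 95% Poisson intervals. The control points of *Irf8* lie to the right of both treated libraries in rods, cones and bipolar cells, and the CCA points of *Irf7* lie to the right in kept cells, microglia and macrophages and pericytes.

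*Irf9* was lower after treatment in photoreceptors, at 32.7 (27.6 to 38.3), 17.8 (14.9 to 21.2) and 9.68 (7.52 to 12.3) CPM in rods and 25.3, 9.48 and 3.23 in cones. The 3 libraries followed 1 order in both classes, control first and CCANT last. Amacrine cells held 12.3, 13.9 and 13.5, with overlapping intervals, so CCANT rods and the cones of both treated libraries were not above them. Bipolar cells held 28.7, 20.1 and 14.4. Microglia and macrophages held 55.2, 61.9 and 47.7, and pericytes 49.9, 68.8 and 32.1, and the intervals of control and CCA overlapped in both.

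*Irf5* was a gene of the myeloid cluster, at 115 CPM in control (106 to 124), with 117 in CCA (106 to 128) and 95.7 in CCANT (85.0 to 107), and of the cluster led by immunoglobulin genes, at 25.4, 41.4 and 28.1. That cluster also passed the markers of T and NK cells. In the other named classes *Irf5* did not exceed 2.61, and 0 UMIs were found in CCA rods, which allows up to 0.414 CPM at 3 counts. *Irf2* was spread over all classes. It was lowest in amacrine cells, at 68.1, 59.8 and 62.6, and reached 242, 235 and 207 in microglia and macrophages and 206, 265 and 227 in endothelial cells. *Irf3* was the 1 member with its highest level of all named classes in rods, at 50.5 (44.2 to 57.5), 50.8 (45.7 to 56.3) and 49.3 (44.2 to 54.7), and the libraries did not differ there. Cones held 40.7, 40.4 and 39.4, and ganglion cells held 13.1, 11.4 and 13.7.

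Within kept cells the members were unevenly spread. The cluster led by interferon-inducible genes held 1055 control, 292 CCA and 43 CCANT cells, and since its genes defined it, its levels are a description. *Irf1* was at 223, 207 and 288 CPM in it, *Irf7* at 31.0, 130 and 65.4, *Irf8* at 37.1, 23.0 and 41.8 and *Irf9* at 55.8, 91.6 and 91.1. In the largest MG cluster (2305, 471 and 123 cells) *Irf1* was at 84.9, 62.2 and 43.9 and *Irf8* at 10.3, 5.06 and 5.54. In the MG cluster with the most treated cells (100, 1308 and 1201 cells) *Irf1* was at 94.2 (82.5 to 107), 105 (101 to 109) and 78.8 (75.4 to 82.3), so CCA was not below control there, and *Irf8* was at 14.7, 9.70 and 7.92. The MG cluster with 182, 1031 and 1082 cells held *Irf1* at 82.7, 51.2 and 46.1. The first cluster of cycling cells (164 CCA and 57 CCANT cells) held *Irf1* at 52.3 in CCA and 61.8 in CCANT. The second (169 and 41 cells) held 36.3 and 23.2, and control cells were too few in both to give a level. *Irf2* was highest in 1 further MG cluster of 594 cells, at 247 over all libraries. By library it was there at 283 (260 to 307) in control, 274 in CCA and 216 (206 to 228) in CCANT. In the cluster led by interferon-inducible genes it was at 149 (144 to 153), 201 (191 to 212) and 147 (123 to 174).

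Kept cells were then split within each library by the summed UMIs of 18 ISGF3 targets, a list that holds no member, into 4 equal groups after thinning. *Irf7* climbed from 8.51 CPM in the lowest to 31.2 in the highest group of control cells, from 9.26 to 72.9 in CCA and from 10.1 to 32.1 in CCANT. *Irf9* went from 41.2 to 62.8, from 34.7 to 86.5 and from 26.2 to 51.6. *Irf1* went from 76.3 to 198, from 60.2 to 120 and from 48.5 to 88.2, so its order between libraries was the same in the lowest and the highest group. Groups of the same rank are not matched between libraries, since the lowest held 465 CPM of targets in control and 313 in CCA. In the lowest group the intervals of control (67.8 to 85.7) and CCA (52.7 to 68.4) overlapped. *Irf8* went from 11.4 to 29.8 in control and from 5.14 to 12.6 in CCA, but only from 7.62 to 9.46 in CCANT, where the intervals overlapped. *Irf2* went from 123 to 162 in control and from 126 to 166 in CCA, and in CCANT, from 118 to 134, the interval of the ratio included no change. For *Irf3* it did so in all 3 libraries, at 34.6 and 32.7 in control, 33.7 and 41.5 in CCA and 32.0 and 30.2 in CCANT.

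The *Irf7* UMIs were unevenly shared among cells. This split uses targets that were themselves higher in CCA, so its values are a description. The 388 of 3887 thinned CCA kept cells with the most ISGF3 target UMIs held 47.8% of all its *Irf7* UMIs, at 133 CPM, and the other CCA cells were at 16.1 CPM (14.1 to 18.4). The 375 control cells chosen in the same way held 24.4%, at 44.0 CPM with 15.1 (13.1 to 17.3) in the rest, and the 327 CCANT cells 34.7%, at 53.5 with 11.2 (9.36 to 13.3) in the rest. In clusters of kept cells, *Irf7* was higher in CCA than in control in the largest MG cluster, at 19.9 (17.3 to 22.9) against 12.3 (11.4 to 13.2), and in that with the most treated cells, at 24.8 (22.9 to 26.8) against 15.5 (10.97 to 21.3). In the MG cluster with 1031 CCA cells it was at 13.7 (12.2 to 15.3) against 11.8 (8.75 to 15.5), and in the cluster with rod markers at 20.5 against 21.2, with overlapping intervals in both. For *Irf1* the cells outside the top-ranked ones were at 108 in control, 81.2 in CCA and 60.8 in CCANT.

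**Figure D4:**
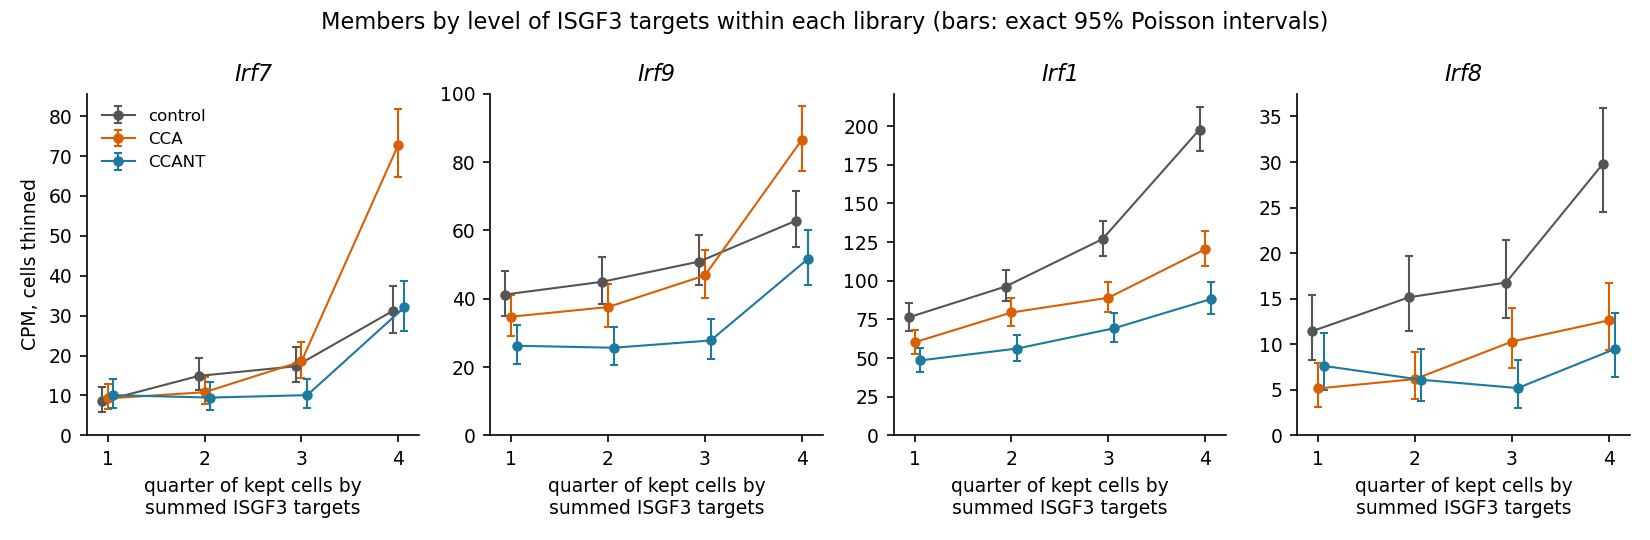
Levels of *Irf7*, *Irf9*, *Irf1* and *Irf8* in 4 equal groups of kept cells ordered by the summed UMIs of 18 ISGF3 targets within each library, in CPM after thinning to 4000 UMIs per cell, with exact 95% Poisson intervals. *Irf7* of CCA rises to 72.9 in the highest group, while *Irf1* keeps the control above CCA and CCA above CCANT in all 4 groups.

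The genes around the factors were counted by lists, with the same 1.5-fold limit and the same percentages of all genes as above. Of 8 receptor and kinase genes of the interferon pathway, 0 were lower and 0 higher from control to CCA (median log2 ratio 0.00), and from control to CCANT *Stat2*, the partner of IRF9 in ISGF3, was lower (111, 90.3 and 53.8 CPM) and *Ifngr2*, a chain of the interferon-gamma receptor, was higher (14.7, 19.1 and 22.4). Of 10 interferon genes only *Ifnk* had enough UMIs to be tested, at 1.96, 1.26 and 1.55 CPM. It was lower from control to CCA, by a log2 ratio of -0.64 (-0.99 to -0.28), and was not called from control to CCANT. Of 14 tested sensors, adaptors and kinases that act on IRF3, IRF5 and IRF7, 0 were lower and 3 higher from control to CCA, namely *Myd88*, *Dhx58* and *Tmem173*, which were named after their values were seen. From control to CCANT only *Tmem173*, which encodes STING, was higher. Its levels were low, at 0.712, 1.84 and 2.27 CPM in control, CCA and CCANT (68, 153 and 161 UMIs). *Ddx58*, which encodes the RNA sensor RIG-I, was at 51.4, 69.0 and 45.4, and *Traf6*, an adaptor, at 29.8, 27.3 and 27.6.

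Of 18 ISGF3 targets, 0 were lower and 11 higher from control to CCA (median log2 ratio 0.74), 5 were lower and 1 higher from control to CCANT (-0.20), and 15 were lower and 0 higher from CCA to CCANT (-0.79). *Ifi44* had the largest rise, at 9.15, 22.9 and 14.4 CPM, and *Bst2*, which tethers virus particles, was at 244, 167 and 105. Of 17 IRF1 targets, 10 were lower and 1 higher from control to CCA (-0.76), 13 were lower and 0 higher from control to CCANT (-1.26), and 7 were lower and 2 higher from CCA to CCANT (-0.51). *Ciita*, the switch of MHC class II genes, was at 13.7, 2.92 and 1.58, and the 1 higher target was *Cxcl10*, a chemokine that ISGF3 also drives, at 21.5, 57.0 and 15.8. Both lists were chosen with earlier results of these libraries known.

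Of 6 tested genes of the IRF8 and myeloid list, 1 was lower from control to CCA (median log2 ratio -0.22) and 2 from control to CCANT (-0.18). The one lower in both was *Cd74*, the MHC class II invariant chain, at 219, 34.1 and 17.4 CPM. *Irf2bp1* and *Irf2bpl*, which encode binding partners of IRF2, were at 27.2, 31.5 and 31.3 and at 105, 133 and 125, and none of the 3 genes of this list passed the limit.

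The genes most like each member were sought over 33 profiles, each 1 class of cell in 1 library with at least 30 cells, among 15545 genes. The profiles share libraries, so Pearson's r of log2 levels is a description. *Irf1* was most like *B2m* (0.961), *Parp14* (0.960) and *Psmb8* (0.959), and *Irf9* most like *Parp14* (0.911), *H2-T23* (0.907) and *Bst2* (0.901). *Irf7* was most like *Phf11d* (0.944), *Wasf2* (0.923) and *Oas1a* (0.916). *Irf8* was most like *H2-Eb1* (0.895), *H2-Ab1* (0.894) and *Cd74* (0.875), which are MHC class II genes. The nearest to *Irf5* were *Ly9*, *Slamf7* and *Ms4a4c* (0.967 to 0.971), to *Irf2* they were *Tgfbr2*, *Mcl1* and *Tmem123* (0.945 to 0.9503) and to *Irf3* they were *Fam120a*, *Smurf2* and *Nkapd1* (0.916 to 0.930).

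Some members differed between both kinds of cell within the CCANT library. Kept cells with *Xist* only stood below those with Y-linked transcripts only by a log2 ratio of -0.36 for *Irf1* (-0.46 to -0.26), -0.29 for *Irf7* (-0.51 to -0.08) and -0.35 for *Irf9* (-0.49 to -0.22), and for *Irf8* the ratio was -0.23 (-0.53 to 0.08). Against the control, CCANT cells with Y-linked transcripts were at -0.77 for *Irf1* (-0.85 to -0.70), -1.21 for *Irf8* (-1.45 to -0.98) and -0.33 for *Irf9* (-0.44 to -0.22). Against CCA, CCANT cells with *Xist* were at -0.58 for *Irf1* (-0.65 to -0.50), -1.23 for *Irf7* (-1.39 to -1.08) and -0.73 for *Irf9* (-0.83 to -0.62). The ratios of like cells thus had the sign of the whole libraries for these members, while CCA and control had no like cells to compare. *Irf2* was also lower in CCANT cells with *Xist* only, at -0.15 (-0.22 to -0.08). Its ratio of CCANT cells with Y-linked transcripts to the control was 0.002 (-0.06 to 0.06), where the whole library was at -0.07. Retinas of either kind may also differ in other ways, which was not tested.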

How the data were processed

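The members and gene lists were chosen with earlier results of these data known. The authors ran Cell Ranger 6.1.1 with intronic reads on mm10 plus tdTomato and GFP and deposited for each library a matrix of raw UMI counts, and for the series a joint count table of the cells they kept. Libraries held 224515457 (control), 219051219 (CCA) and 222497877 (CCANT) UMIs. All values were summed from the library matrices, and the joint table only gave the kept barcodes. Other classes came from cells within the study's stated limits (2000 features or more, UMIs up to 100000 and a mitochondrial share up to 15%; 9579, 10521 and 10890 cells), clustered with scanpy 1.11.5 and leidenalg 0.10.2 without the members, sex-linked genes, tdTomato and GFP, and named from markers.

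Levels are CPM with exact Poisson intervals, ratios have the exact interval of a ratio of Poisson counts, and shares of cells were taken after thinning to 4000 UMIs (rods below that depth were left out, 76 in the control). Intervals are at 95% (scipy 1.17.1), and the limit that a count of 0 allows is 3 counts. The intervals of ratios were tried only on simulated Poisson counts, which leave out the uneven spread of UMIs over cells. They therefore do not cover that spread, and where many UMIs come from 1 cell they are too narrow. The limit for calls was 1.5-fold among genes with at least 100 UMIs over the libraries. Scrublet's automatic threshold marked 0, 439 and 0 cells, so the 5% of cells with the highest score were left out as an alternative, and doublets were otherwise not removed by this work. The genes named were the 7 members, *Irf4*, the largest fall and the largest rise or smallest fall from control to CCA in each list, and the 3 genes most like each member, besides those said to be named later. *Irf2*, *Irf3*, *Irf5* and *Irf7* overlap counted genes on the opposite strand, which the stranded 3′ counts keep apart, and *Irf8* overlaps *Gm20388* on the same strand, which has no row in the counts. Gene coordinates are those of GENCODE on mm10. Alternatives were another scaling, other filters on cells, other thresholds and other clusterings, with 1 library per group throughout.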

Additional observations from a re-analysis of the deposited data

Results flagged for a closer look

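Members moved against the kept cells in 1 other class, with counting intervals that did not overlap 0 on either side, and the difference between the classes was not tested. *Irf5* from control to CCA had a log2 ratio of -3.46 in ganglion cells (-8.83 to -0.82), where 13 of the 21 control UMIs came from 1 cell, and 0.90 in kept cells. *Irf2* from control to CCANT was at 0.19 in bipolar cells (0.08 to 0.30; 83.7 and 95.4 CPM) and -0.07 in kept cells. *Irf7* from control to CCANT was at 1.12 in the cluster led by immunoglobulin genes (0.38 to 1.86; 13.3 and 29.0 CPM) and -0.31 in kept cells. With a finer clustering, T and NK cells (133) and B and plasma cells (71) formed separate clusters. Whether their shares differed between libraries was not tested.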

How the results depend on the processing

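The numbers of members past the limit were small and moved by 1 or 2. From control to CCA, 2 members were lower in place of 1 under median-of-ratios scaling, in kept cells with at least 2 tdTomato UMIs, in the MG clusters of all cells and at a lower limit, since *Irf1* lay near the limit. The number higher became 1 in the MG clusters of all cells and 0 at a limit of 2-fold. From control to CCANT, 1 was lower at 2-fold, and at the lower limit *Irf9* was lower as well. In the same comparison 0 were higher in the MG clusters of all cells, in CCANT cells with Y-linked transcripts only and at 2-fold. From CCA to CCANT, 2 were lower with at least 2 tdTomato UMIs and in CCANT cells with *Xist* only, and 3 at the lower limit. Of 182 log2 ratios of members under alternatives, 13 left the counting interval of the reported value, 8 crossed the 1.5-fold limit and 7 changed sign, all of the latter among ratios of *Irf2*, *Irf5* and *Irf9* that were not called. *Irf8* stayed between -1.14 and -1.01 from control to CCA and between -1.40 and -1.21 from control to CCANT. Of 294 class levels, 35 left their interval, and without the 5% of cells with the highest doublet scores *Irf1* in CCA bipolar cells was 6.53 in place of 18.3. Median-of-ratios scaling shifted all ratios by -0.06, -0.03 and 0.03. No paired analysis was possible because each group has 1 library.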

Other observations

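Control kept cells with 0, 1 and 2 or more GFP UMIs after thinning (3193, 462 and 103 cells) held *Irf8* at 16.8 (14.6 to 19.2), 25.4 (18.7 to 33.8) and 34.0 (18.6 to 57.0) CPM. *Irf1* in the same cells was at 123, 129 and 141, with overlapping intervals, and *Irf7* at 17.5, 23.8 and 4.85. The last *Irf7* value rests on very few UMIs, and its interval overlapped that of cells with 0 GFP UMIs. Astrocytes (15, 33 and 142 cells) held *Irf8* at 23.7, 27.3 and 14.0 CPM. After thinning, 70.3% of control, 68.2% of CCA and 64.0% of CCANT kept cells held a UMI of at least 1 member, and 7.42%, 7.10% and 3.84% held at least 3 members.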
